A study of Arabidopsis thaliana with 7 samples.

Results

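The genes described here are the plastid loci of Arabidopsis thaliana, taken as every row of the deposited table whose identifier starts with ATCG, the prefix of the plastid genome. They are 14 of 27826 rows and hold 12 distinct profiles, because 2 pairs of rows carry the same values on every array. Transcripts of isolated 8-cell embryos were measured on 7 one-colour arrays, 4 of the wild type and 3 of bdl, the Bodenlos (IAA12) mutant, both in the Columbia (Col-0) background and with no treatment named in the labels. Each array received RNA of about 40 to 50 embryos picked by micromanipulator, so embryos were pooled, and 100 ng of RNA went into whole-transcript cDNA synthesis. The labels give neither the bdl allele nor whether these embryos carried a transgene, although the growth protocol speaks of antibiotic selection. The design text speaks of 3 replicates for each genotype, whereas the labels list 4 arrays of the wild type, each of which entered the comparison.

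The plastid genome encodes part of the photosynthetic complexes, part of the plastid ribosome and the core of a bacterial-type RNA polymerase, while the nucleus encodes the remaining subunits. A second, phage-type polymerase and the sigma factors that direct the bacterial-type enzyme come from the nucleus. Plastids of early embryos are undifferentiated proplastids, and greening begins later in embryo development. BODENLOS is an Aux/IAA repressor of the auxin response factor MONOPTEROS, and setting bdl beside the wild type addresses what the early embryo transcribes when this pathway is altered.

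Across the whole table, array medians ranged from 8.44 to 9.37 in intensity. IAA12 itself read 135 to 167 on the wild-type arrays and 432 to 477 on the bdl arrays, which is 1.59 ± 0.17 (SE) higher on the log2 scale (limma, adjusted p = 0.00287). The mean log2 intensity of 9 embryo markers was 7.90 to 8.08 in the wild type and 7.44 to 7.71 in bdl, and 2 of them, BBM and DRN, fell in bdl by 1.63 and 1.99 on the log2 scale (limma, adjusted p = 0.00389 and 0.00657), where 1.76% of all rows were called. The median difference of the 9 was -0.19. Mean levels were 2.28 to 2.36 in the wild type and 2.07 to 2.35 in bdl for 11 endosperm markers, 2.79 to 3.16 and 2.46 to 2.94 for 13 seed coat markers, and 2.29 to 4.04 and 2.11 to 3.16 for 10 pollen markers, with 0 called in each list. At an unadjusted p under 0.05 were 1, 5 and 0 of them, against 10.7% of all rows, and the seed coat marker with the smallest p, STK, was at -1.72 (limma, adjusted p = 0.118). The next by p, TT1, went the other way, at 0.77 (limma, adjusted p = 0.186), and 6 of the 13 seed coat markers were higher in bdl. Whether replicates came from separate harvests is not stated in the labels, so the p-values rest on a spread between arrays that may be technical.

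No plastid locus passed the test between the genotypes. Of the 12 profiles, 0 were called by limma at an adjusted p under 0.05, where 1.76% of all rows were called. Before adjustment, 1 of 12 had a p under 0.05, beside 10.7% of all rows. The groups of arrays did not overlap for 1 of 12 profiles, beside 11.2% of all rows, and it was the same one, ATCG00170. In 9 of 12 profiles the mean was higher in bdl, beside 48.3% of all rows. Of these, ATCG00580, ATCG00610 and ATCG00990 turned lower without wild type replicate 4, at -0.080, -0.034 and -0.099. They also turned lower without other arrays. ATCG00580 was at -0.061 without bdl replicate 2, and ATCG00610 at -0.062 without bdl replicate 3. ATCG00990 was at -0.15 without wild type replicate 1 and at -0.002 without bdl replicate 2. With every array kept, the median log2 difference of the 12 was 0.095, against -0.01 over all rows. Precision limits this statement: the 95% interval lay within a 2-fold change either way for 6 of the 12. In RNA of whole embryos, fewer plastids and less transcript per plastid cannot be told apart.

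Neither the deposited table nor the RefSeq gene table pairs the ATCG identifiers with gene names, and 0 of the 14 were found there by identifier, although the table lists 129 genes on the plastid chromosome. The loci are therefore given by identifier, and a division into photosystem, ribosomal protein, polymerase and ATP synthase genes was not made. They are ordered instead by whether their values are their own.

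Most plastid rows share their values with another row. This was so for 9 of the 14 plastid rows (64.3%), for 37 of the 92 mitochondrial rows (40.2%) and for 130 of 27720 nuclear rows (0.469%). Chloroplast and mitochondrial DNA has repeatedly been copied into plant nuclear chromosomes, and such copies are often annotated as pseudogenes. An array signal does not tell a copy from its source where the same probes serve both. Whether rows with identical values share their probes was not tested, since probe sequences were not used here.

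Among the 12 profiles, 5 were identical to a nuclear locus. ATCG00020 carried the values of AT2G07688, a transcribed pseudogene on chromosome 2 in RefSeq. ATCG00670 carried those of AT2G05935, a pseudogene on the same chromosome. ATCG00140 carried those of AT3G32990, a transcribed pseudogene on chromosome 3, and ATCG00240 those of AT3G20365, a pseudogene whose RefSeq synonym names a tRNA for tyrosine. ATCG00610 was identical both to AT2G07748, annotated as a nuclear tRNA gene with a synonym naming tryptophan, and to the mitochondrial locus ATMG00930. For these 5, signal of the plastid locus and signal of the other locus cannot be told apart. A further 2 profiles were each shared by plastid loci, ATCG00970 with ATCG01160 and ATCG00990 with ATCG01140. The other 5 plastid loci, ATCG00160, ATCG00170, ATCG00230, ATCG00250 and ATCG00580, had values of their own.

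Of 18 measured neighbours of these nuclear loci, 4 followed their closest plastid row with r over 0.9, and the others were less alike, down to r = 0.17. This comparison was chosen after the values were seen and is given without a test. For each neighbour the plastid row with the highest r was taken, which favours high values. The same share was not computed for other nuclear rows, so 4 of 18 cannot be read as an excess. AT3G20362, a protein-coding locus next to AT3G20365 in RefSeq order, followed ATCG00250 across the 7 arrays with r = 0.996, and no other row outside the plastid set was as close. AT3G33002, a transcribed pseudogene 2 loci from AT3G32990, followed ATCG00160 with r = 0.973 and ranked 4 among all rows. Among all rows, and not as neighbours, those closest to ATCG00990 were AT2G07764, a nuclear tRNA locus with a synonym naming asparagine, and the mitochondrial locus ATMG00380, each with r = 0.99. Closeness alone is not rare over 7 arrays: rows with an r over 0.95 numbered from 6 for ATCG00250 to 36 for ATCG00170.

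Of the loci with values of their own, ATCG00170 came nearest to a difference. Its intensity, in the order of the replicate numbers here and below, was 273, 248, 298 and 183 on the wild-type arrays and 441, 369 and 355 on the bdl arrays. Every bdl array lay above every wild-type array. The log2 level was 7.94 ± 0.31 (SD, n = 4) in the wild type and 8.60 ± 0.17 (SD, n = 3) in bdl, a log2 difference of 0.65 ± 0.22 (SE; 95% interval 0.14 to 1.16; limma, adjusted p = 0.302). Its adjusted p ranged from 0.180 to 0.912 over the alternative settings.

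ATCG00160 had intensities of 237, 265, 321 and 175 in the wild type and 291, 302 and 321 in bdl. The bdl arrays were close together and reached from between the 2 highest wild-type arrays to level with the highest, and the log2 difference was 0.32 ± 0.23 (SE; limma, adjusted p = 0.714). ATCG00580 had intensities of 1223, 1198, 1065 and 754 in the wild type and 1194, 1324 and 835 in bdl. In each genotype 1 array was low, wild type replicate 4 and bdl replicate 3, and the log2 difference was 0.075 ± 0.25 (SE; limma, adjusted p = 0.953).

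ATCG00230 was the dimmest of the set and the most variable. Its intensity was 12.6, 13.5, 18.0 and 6.51 in the wild type and 51.8, 21.9 and 10.1 in bdl, a 7.96-fold range over the 7 arrays. The bdl arrays ran from below most wild-type arrays to far above all of them. The difference of 0.92 ± 0.56 (SE; 95% interval -0.36 to 2.21; limma, adjusted p = 0.644) was 0.32 without bdl replicate 1 and 1.51 without bdl replicate 3. The mean of this locus was the one among the 12 that did not exceed the 75th percentile of all rows, and detection calls were not used here.

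ATCG00250 had the greatest difference downwards. Its intensity was 69.0, 98.7, 100.5 and 55.4 in the wild type and 42.4, 88.5 and 32.9 in bdl. Replicates 1 and 3 of bdl lay below every wild-type array, and replicate 2 lay inside their range. The log2 difference was -0.66 ± 0.38 (SE; 95% interval -1.52 to 0.21; limma, adjusted p = 0.618). It was -1.07 without bdl replicate 2 (adjusted p = 0.283) and -0.36 without bdl replicate 3.

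Replicates 1 and 3 of bdl also stood low for the rows ATCG00970 and ATCG01160. Their common intensity was 1275, 1464, 1416 and 1324 in the wild type and 734, 1559 and 806 in bdl. The wild-type arrays agreed closely, with a log2 level of 10.42 ± 0.09 (SD, n = 4), while bdl replicate 2 lay above all of them and bdl replicates 1 and 3 well below, at 9.93 ± 0.59 (SD, n = 3). The log2 difference was -0.49 ± 0.28 (SE; 95% interval -1.13 to 0.15; limma, adjusted p = 0.610). Without bdl replicate 2 it was -0.83, and the adjusted p of 0.166 was the smallest of any profile under any setting tried, while it was -0.29 without bdl replicate 1.

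The rows ATCG00990 and ATCG01140 varied most within the wild type. Their common intensity was 173, 357, 592 and 195 in the wild type and 333, 355 and 253 in bdl. All bdl arrays fell inside the wild-type range, and the log2 difference was 0.094 ± 0.43 (SE; limma, adjusted p = 0.967). It was 0.44 without wild type replicate 3 and -0.15 without wild type replicate 1.

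**Figure D1:**
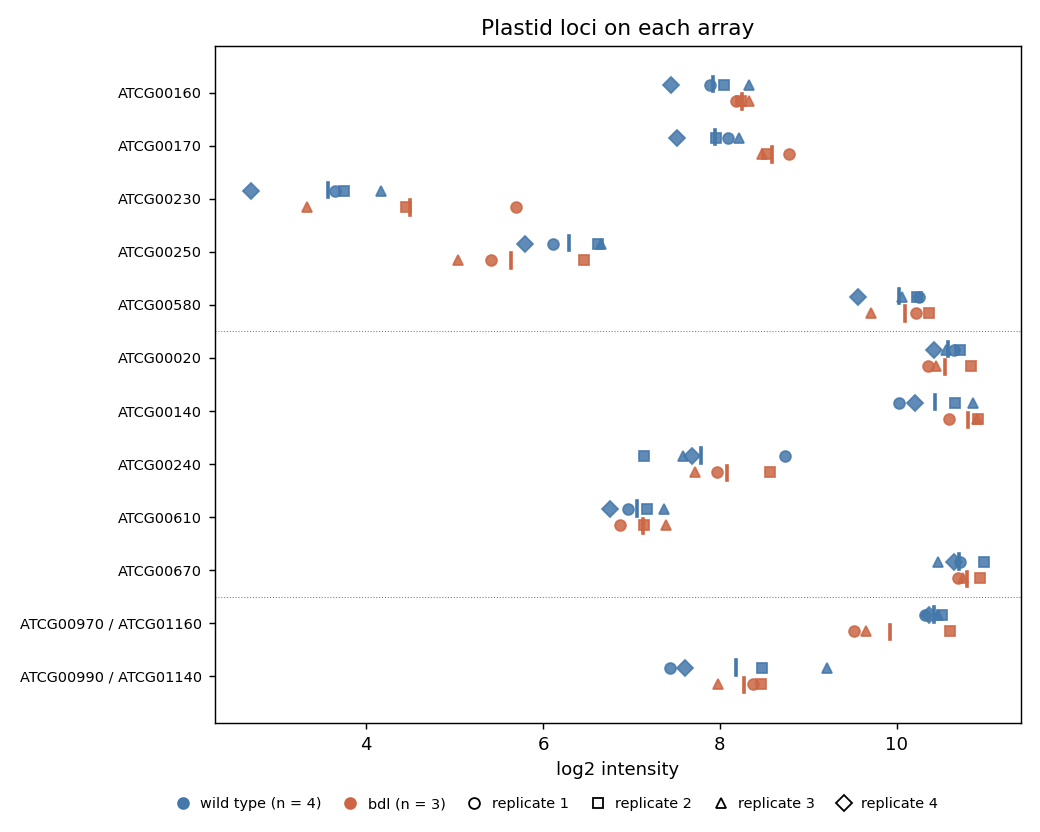
Log2 intensity (horizontal axis) of the 12 plastid profiles on each array; blue points are the 4 wild-type arrays, orange points the 3 bdl arrays, marker shapes the replicate numbers and short bars the group means. Dotted lines part loci with values of their own (top), loci identical to a nuclear locus (middle) and pairs of identical plastid loci (bottom); ATCG00170 is the one profile without overlap between the groups.

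The 5 profiles shared with nuclear loci had log2 differences of -0.034 to 0.37, none of which passed the test. ATCG00020 was steady, at 1604, 1676, 1502 and 1370 in the wild type and 1313, 1840 and 1392 in bdl, with a difference on the log2 scale of -0.034 ± 0.19 (SE; 95% interval -0.48 to 0.41). ATCG00670 was as steady, at 1677, 2028, 1420 and 1600 in the wild type and 1656, 1974 and 1726 in bdl, with a log2 difference of 0.095 ± 0.19 (SE; 95% interval -0.35 to 0.54). The residual spreads of these rows, 0.19 on the log2 scale in both, stood at percentiles 14.2 and 13.0 of all rows.

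ATCG00140 had intensities of 1042, 1617, 1864 and 1181 in the wild type and 1539, 1933 and 1921 in bdl. Wild type replicates 1 and 4 were low, bdl replicate 1 lay between these and the other 2, bdl replicates 2 and 3 lay above all 4, and the log2 difference was 0.37 ± 0.25 (SE; limma, adjusted p = 0.696). ATCG00240 was spread by single arrays. It reached 427 on the first wild-type array and 379 on the second bdl array, against 142, 192 and 206 in the other wild-type arrays and 250 and 211 in the other bdl arrays, and its log2 difference of 0.30 ± 0.39 (SE; limma, adjusted p = 0.864) was 0.61 without wild type replicate 1, 0.08 without wild type replicate 2, 0.48 without bdl replicate 3 and 0.05 without bdl replicate 2. ATCG00610, whose values belong to a nuclear and a mitochondrial locus as well, was at 124, 145, 165 and 108 in the wild type and 117, 141 and 168 in bdl. The groups overlapped almost fully, with a log2 difference of 0.068 ± 0.22 (SE; limma, adjusted p = 0.951).

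**Figure D2:**
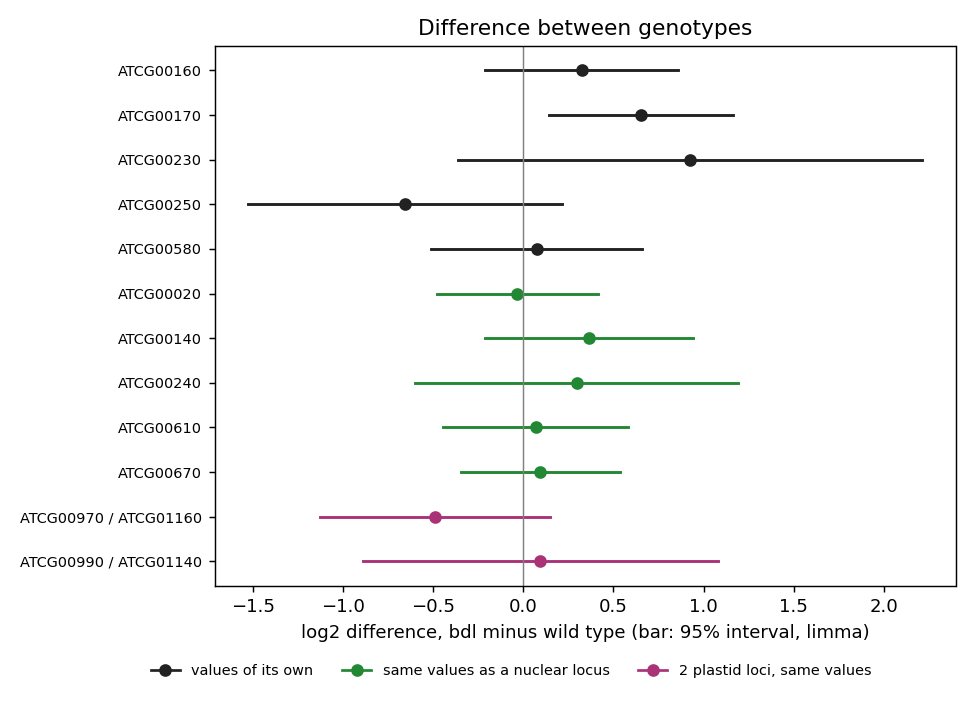
Log2 difference, bdl minus wild type (horizontal axis), of each plastid profile with its 95% interval from limma; colours mark loci with values of their own, loci identical to a nuclear locus and identical plastid pairs. Intervals of 11 of the 12 profiles include 0, and the interval of ATCG00170, 0.14 to 1.16, does not, before adjustment for the number of rows tested.

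Single arrays stood low or high for many plastid loci. The median log2 intensity of the 12 profiles was 8.42, 8.26, 8.77 and 7.65 in wild type replicates 1 to 4 and 8.58, 8.55 and 8.40 in bdl replicates 1 to 3. The bdl arrays lay within the wild-type range, and wild type replicate 4 lay below all others. That array gave the lowest of the 7 values for 5 of the 12 profiles and the highest for 0, and bdl replicate 2 gave the highest for 4 and the lowest for 0. Without wild type replicate 4 the median log2 difference of the 12 was 0.020. It was 0.037 without bdl replicate 2, and it was 0.17, 0.17, 0.20 and 0.26 without bdl replicate 1, wild type replicate 2, wild type replicate 3 and bdl replicate 3. The pollen marker mean was also highest on wild type replicate 4, at 4.04, against 2.29, 3.36 and 2.29 on wild type replicates 1 to 3 and 2.11, 3.16 and 2.15 on the bdl arrays. None of its 10 genes was called, and its part in the low plastid values was not tested. The residual spread of the profiles had a median of 0.33 on the log2 scale, against 0.36 over all rows, and ran from 0.19 to 0.89.

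The mitochondrial genome, the other organelle genome on the array, also had no row past the test. Of its 92 rows 0 were called by limma, 4 had an unadjusted p under 0.05, below the share of 10.7% over all rows, and the median log2 difference was 0.12, or -0.035 without wild type replicate 4. Its array medians were 7.80, 8.17, 8.15 and 7.51 in the wild type and 7.92, 8.01 and 8.01 in bdl, so that wild type replicate 4 was the lowest array for both organelle genomes. All 92 rows were counted here, although 37 of them carried the values of another row and 33 those of a nuclear locus. ATMG00930 carried the values of ATCG00610, so the plastid and mitochondrial sets share a profile. With identical rows counted once, the median log2 difference of the mitochondrial rows was 0.097. Whether plastid and mitochondrial rows differ in their response was not tested.

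**Figure D3:**
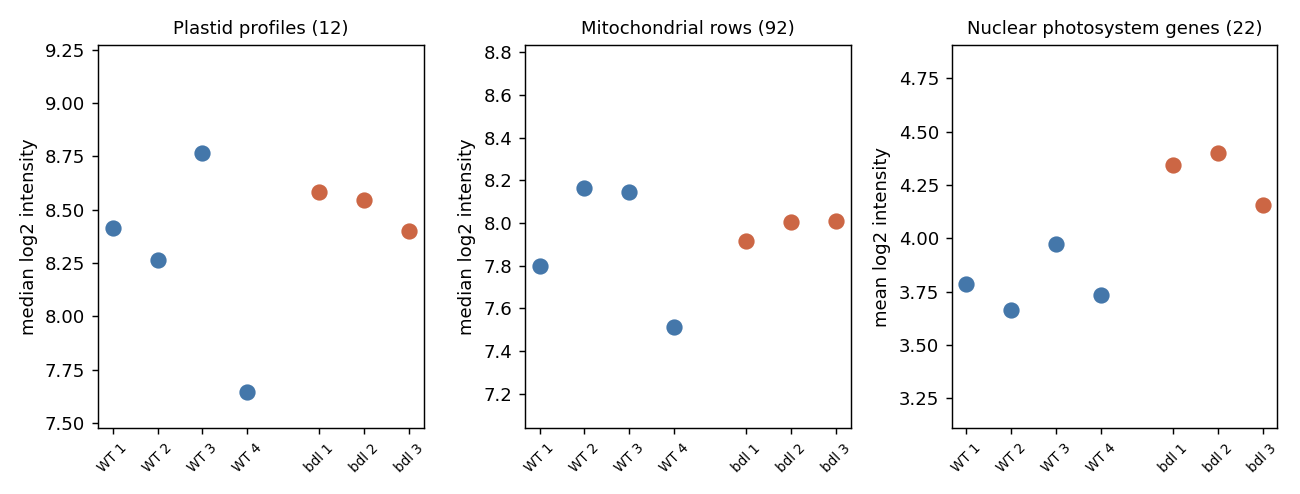
Log2 intensity (vertical axes, each spanning the same number of log2 units) on each array as the median of the 12 plastid profiles, the median of the 92 mitochondrial rows and the mean of 22 nuclear photosystem genes; blue is wild type (WT) and orange is bdl. The plastid and mitochondrial medians of bdl fall within the wild-type range and are lowest in wild type replicate 4, and the photosystem gene means are 3.66 to 3.97 in the wild type and 4.16 to 4.40 in bdl; the difference between the panels was not tested.

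Nuclear genes that serve the plastid are given as context for the plastid loci. Of 10 lists, 7 had no called member and 3 had 1 each, all higher in bdl, where 0.902% of all rows were called higher. Array means did not overlap between the genotypes for 3 of the 10 lists, photosystem subunits (3.66 to 3.97 and 4.16 to 4.40), plastid ribosomal proteins (6.63 to 6.97 and 7.04 to 7.17) and regulators and chlorophyll synthesis (3.29 to 3.59 and 3.71 to 3.79), and overlapped for the other 7. Among single rows, not list means, the share without overlap was 11.2%, and the median row had a mean log2 intensity of 3.17. The embryo marker means given above also did not overlap between the genotypes, those of the seed coat markers reached lower in bdl, and their part in these differences was not tested. PSBX, a small photosystem II subunit, rose from 80.2, 83.8, 111 and 102 to 385, 366 and 175, a log2 difference of 1.64 ± 0.31 (SE; limma, adjusted p = 0.0426). It was the 1 called gene of 22 nuclear photosystem subunits, a list with 7 members at an unadjusted p under 0.05 (10.7% of all rows) and a median of 0.67. Its call held in only 1 of 7 omissions of an array (without bdl replicate 3; adjusted p 0.0108 to 0.162), and it was lost with cyclic loess (0.0508), array weights (0.0518) and plastid centring (0.160). LHCB1.3, a light-harvesting protein gene, rose from 7.73, 11.1, 12.6 and 6.24 to 54.3, 24.4 and 39.7, a log2 difference of 2.05 (limma, adjusted p = 0.0281). Its wild-type values lay near the array medians of all rows, 8.44 to 9.37. It was the 1 called gene of 19 light-harvesting and Rubisco genes. In that list 12 were higher in bdl, 1 had an unadjusted p under 0.05 and the median was 0.17. The call of LHCB1.3 held in 2 of 7 omissions (without wild type replicate 3 or bdl replicate 2, adjusted p 0.0304 to 0.105). AT3G23710 (Tic22-III), of the protein import machinery, rose by 0.98 (limma, adjusted p = 0.0424), the 1 of 10 import genes called. In that list 5 were higher in bdl, 1 had an unadjusted p under 0.05 and the median was 0.02. The call of AT3G23710 was lost in all 7 omissions (adjusted p 0.0542 to 0.155), with the filter on dim rows (0.0534), with a trended robust variance (0.0635) and with plastid centring (0.793). With the replicate block all 3 calls were lost (adjusted p 0.174 to 0.228).

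The genes that transcribe plastid DNA did not pass where they were matched to 1 measured locus. SIG1 and TRXZ of the first list below and RPOTMP of the phage-type polymerases were not so matched and are left out. Among 17 sigma factors and polymerase-associated proteins 0 were called by limma and 5 had an unadjusted p under 0.05, against 10.7% of all rows, with a median log2 difference of 0.23. SIG6 was at 1.00 (adjusted p = 0.177) and SIG2 at 0.83 (adjusted p = 0.254). Of 2 phage-type polymerase genes, SCA3, whose product acts in plastids, was at 0.18 and AT1G68990, the mitochondrial enzyme, at -0.39. In the other lists without a call, the counts at an unadjusted p under 0.05, to be read against 10.7% of all rows, were 4 of 34 plastid ribosomal protein genes (median 0.23; AT5G47190 at 0.85 and AT1G05190 at 0.85), 2 of 22 RNA maturation genes (0.12; CRR28 at 0.98 and PGR3 at 1.49), 1 of 14 regulators and chlorophyll synthesis genes (0.25; GLK1 at 0.50, and PORB with an adjusted p of 0.336), 1 of 6 ATP synthase and electron transport genes (0.60; ATPD at 1.17, adjusted p = 0.0505, and PDE334 at 0.66) and 0 of 11 division genes (-0.02; AT1G69390 at 0.94 and ARC6 at 0.38).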

How the data were processed

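The authors deposited 1 table of intensity values, linear and above 0, with a row per locus and a column per array. The submitters' processing notes name RMA with no version. The numbers resemble RMA output taken off the log scale, although no source says so, and neither a chip definition nor a genome build is given in the sources used here. Log2 was taken with no pseudocount and no further scaling. The difference between genotypes came from lmFit and eBayes of limma 3.58.1 (R 4.3.3; 2-sided), fitted over all 27826 rows, with Benjamini-Hochberg adjustment, and only plastid rows and lists are printed. Rows with identical log2 values (to 6 decimals) counted once among the plastid rows. Names came from a RefSeq table of assembly TAIR10.1, used for names and neighbours only; 219 list entries matched 1 measured locus each, and 3 ambiguous, 9 unmatched and 2 misnamed entries were left out.

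The members and lists were chosen with earlier results of these data known. The rule for named genes took called plastid loci and, per list, called genes or the 2 with the smallest p; its parts that need plastid gene names or classes could not be applied, and all 12 profiles are given instead. The number of arrays limits the precision. Same-numbered arrays of the genotypes correlated at 0.036 to 0.047 in their deviations, so the numbers were not taken as pairs. Alternatives were other scalings, a filter at the 25th percentile, other variance models, array weights, a replicate block, identical rows counted once, a threshold of 0.1 and leaving out each array. Figures were drawn with matplotlib 3.10.9.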

Additional observations from a re-analysis of the deposited data

Results flagged for a closer look

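In 45 checks of the 4 wild-type arrays, over the plastid profiles, the named nuclear genes and the list and organelle levels, 2 values stood apart from the other 3 arrays, and chance alone gives about 1 in 20. Both were in wild type replicate 3. The sigma factor gene SIG2 had a log2 intensity of 4.76 there against 3.86 to 3.94 in the others, and CRR28, an RNA editing factor gene, had 4.11 against 3.21 to 3.35. No plastid profile stood apart in this way. With 3 arrays, bdl was not examined.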

How the results depend on the processing

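The count of plastid profiles called by limma was 0 under all 17 alternatives, with adjusted p from 0.166 to 1.00; the counts at an unadjusted p under 0.05 ran from 0 to 3. The filter, the trended robust variance, identical rows counted once and the threshold of 0.1 cannot change a log2 difference, so directions there were fixed. Directions held in 184 of 204 values, with these included. Those that turned were near 0: ATCG00020 was at 0.035 with quantile normalization and 0.078 with cyclic loess; ATCG00580, ATCG00610, ATCG00670, ATCG00990 and the nuclear gene SCA3 were at -0.16, -0.17, -0.14, -0.14 and -0.059 with each array centred on its plastid median, which moved the median of all rows by -0.24; ATCG00990 was at -0.013 with array weights. Replicate number 4 exists only in the wild type, so the replicate block gave the same differences as leaving out wild type replicate 4. With this block, ATCG00580, ATCG00610 and ATCG00990 were at -0.080, -0.034 and -0.099. Of all rows, 188 were called instead of 490, and 0 nuclear plastid genes were called instead of 3. That count was 1 with plastid centring, 2 with cyclic loess, the filter, the trended robust variance or array weights, 4 at a threshold of 0.1, and 0 to 1 when an array was left out. Over those omissions ATCG00020 ran from -0.18 to 0.062, ATCG00580 from -0.080 to 0.27, ATCG00610 from -0.062 to 0.20 and ATCG00990 from -0.15 to 0.44, and the calls over all rows fell to 281, 278 and 299 without bdl replicates 1, 2 and 3. Mitochondrial calls numbered 0 to 1, the 1 being ATMG00750 without wild type replicate 4 (-1.52; adjusted p = 0.0474). The causes were not tested. Counts by plastid gene class were not run, since no source pairs these loci with names. Detection calls and probe sequences were not used here, so background level and cross-hybridisation are unknown.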
